A study of Mus musculus with 4 samples.

Results

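The genes described here encode the nuclear part of the mitochondrial respiratory chain and ATP synthase. They were taken by symbol: every gene whose symbol starts with Nduf, Uqcr, Atp5, Cox4, Cox5, Cox6, Cox7 or Cox8, together with Sdha, Sdhb, Sdhc, Sdhd, Cycs and Cyc1. This gave 94 of the 22632 genes in the expression table. Of these, 83 encode subunits: 36 of complex I, 4 of complex II, 9 of complex III, 1 cytochrome c, 18 of complex IV and 15 of ATP synthase (complex V). Ndufa4 was placed in complex IV, where its protein is known to reside. Another 4 encode assembly factors of complex I (Ndufaf1 to Ndufaf4). The remaining 7 match a prefix but are not counted as subunits: Ndufa4l2, Cox7a2l, Cox4nb, Atp5s, Atp5sl, the pseudogene Atp5l-ps1, and a second row with the symbol Ndufb8 under its own gene identifier.

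RNA was sequenced from small intestinal organoids, epithelial cultures grown from crypts in Matrigel, collected at 24 hours of culture, as 4 libraries with 1 per group. The loss-of-function pair was Yap+/fl;VillinCre (Yap+/-) and Yapfl/fl;VillinCre (Yap-/-), where Cre under the Villin promoter acts in the intestinal epithelium. The control of this pair therefore carries Cre and has lost 1 Yap allele. The gain-of-function pair was YapTg, a line in which doxycycline induces transgenic wild-type Yap by way of a Cre-dependent reverse tetracycline transactivator, cultured without or with doxycycline from seeding. No library with doxycycline but without the transgene was analysed here, so the drug and the induced YAP cannot be told apart. The labels give no animal numbers, ages or pooling. With 1 library per group there is no replicate spread: every difference below is a difference between 2 libraries, and none was tested as a difference between conditions.

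The respiratory chain passes electrons from NADH (through complex I) and succinate (through complex II) to complex III, then by cytochrome c to complex IV, which reduces oxygen. Complexes I, III and IV pump protons, and ATP synthase uses the resulting gradient to make ATP. Most subunits are encoded in the nucleus and imported, while a small core of complexes I, III, IV and V is encoded by mitochondrial DNA. In the small intestine, absorptive enterocytes are rich in mitochondria.

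The deposited values are RPKM, reads scaled to gene length and library total. Read totals solved from these values ran from 44934170 (YapTg without doxycycline) to 75269003 (YapTg with doxycycline), and 86.1% to 90.6% of them fell in the table's genes. Yap1, the targeted gene, stood at 16.7 RPKM in Yap+/-, 3.35 in Yap-/-, 25.1 in YapTg without doxycycline and 1039 with it. It was thus 4.99-fold lower in Yap-/- and 41.4-fold higher with doxycycline, as the labels say. The organoids expressed epithelial markers: the 10 enterocyte markers summed to 10782 RPKM in Yap+/-, whereas the 9 stromal and muscle markers summed to 16.7 and the 6 immune and blood markers to 0.873. Col3a1, Des and Hba-a1 were at 0 in all 4 libraries. In RNA from whole organoids, fewer cells of a type and less RNA per cell cannot be told apart.

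The nuclear-encoded chain was lower throughout in the doxycycline-treated organoids. Counts below use the 85 genes of the set that reached 1 RPKM in at least 1 library of the pair, and log2 ratios are of RPKM plus 1, which understates differences of low genes. All 85 were lower with doxycycline than without, where 54.5% of the 11108 genes of the table at that level were lower. Of the 85, 75 were at least 1.2-fold lower (29.5% of all genes) and 23 at least 1.5-fold lower (13% of all genes). Only Cox7a1 was at least 2-fold lower on this scale (5.8% of all genes), and none was higher (45.5% of all genes). The median log2 ratio was -0.45, beside -0.04 over all genes. Each difference was therefore modest, but it ran in 1 direction across every complex. The reads behind it are many: for 70 of the 71 subunits at 5 RPKM or more, the 95% interval of the ratio excluded 1 on the lower side, as it did for 46.1% of the 7814 genes at that level. These intervals are exact conditional binomial ones and cover counting error only, so they say how well each library was counted and nothing of how much a second culture would differ.

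In the Yap-/- organoids the same genes stood slightly higher. Of 85 at the floor of 1 RPKM, 83 were higher than in Yap+/-, where 65.5% of 10710 genes were higher, and 14 were at least 1.2-fold higher (8.21% of all genes). The median log2 ratio was 0.18, beside 0.05 over all genes. Only 2 were lower (34.5% of all genes), Uqcrb and Ndufa4l2. Ndufa4l2 was also the 1 member at least 1.2-fold lower (5.34% of all genes) and past 2-fold (0.57% of all genes). When the libraries were rescaled by median ratios, 53.5% of all genes were higher, 79 of the 85 members stayed higher, and 7 in place of 14 passed 1.2-fold. Among the subunits at 5 RPKM or more, the counting interval excluded 1 on the higher side for 66 of 72 (46.2% of the 7030 genes at that level) and on the lower side for 1, Uqcrb (17.2% of those genes).

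The loss and doxycycline pairs share no library, and their directions were opposite. Of the 84 members at the floor in both pairs, 83 were higher in Yap-/- and lower with doxycycline, against 42.9% of the 10533 genes at the floor in both. Across the 4 libraries, all 84 were lowest in YapTg with doxycycline (37.5% of all genes), 76 were highest in Yap-/- (25% of all genes), and 71 followed the order Yap-/-, Yap+/-, YapTg without doxycycline, YapTg with doxycycline (15% of all genes). The sizes were less alike than the directions. Over the 71 subunits at 5 RPKM or more, the log2 ratios of both pairs correlated with r = -0.55 and rho = -0.30, and r was -0.25 without Cox7a1. These genes share their libraries and are not independent.

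The references of the 2 pairs also differed from each other. With Yap+/- set over YapTg without doxycycline, 73 of 86 members at the floor were higher in Yap+/- (34.4% of 10883 genes) and 13 lower (65.6% of all genes). At 1.2-fold, 38 were higher (11.1% of all genes) and 3 lower (28.8% of all genes). The median log2 ratio was 0.24, beside -0.11 over all genes. Short genes and abundant genes as a whole had positive medians here, unlike all genes (below). Median-ratio scaling moved the median of all genes to 0.02 and the share of all genes higher in Yap+/- to 53.2%, with 80 of the 86 members higher. This comparison shares 1 library with each of the other pairs. Side by side, the median log2 ratios of the members were 0.24 between the references, 0.18 in the Yap-/- pair and -0.45 in the doxycycline pair. Under median-ratio scaling they were 0.40, 0.14 and -0.41, and 61 members in place of 38 were at least 1.2-fold higher in Yap+/- than in YapTg without doxycycline.

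**Figure D1:**
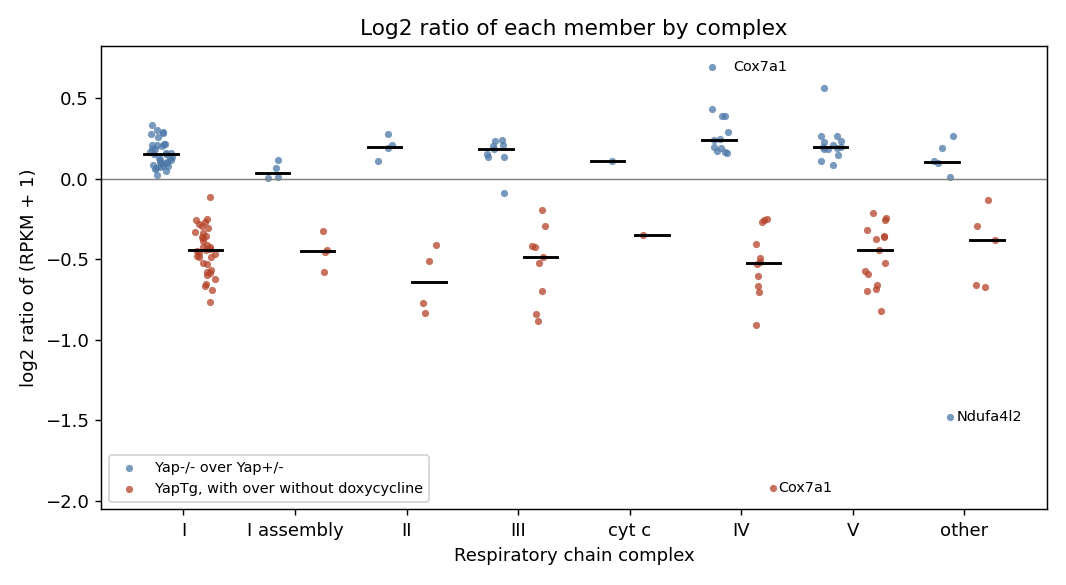
Log2 ratio of RPKM plus 1 for each member at 1 RPKM or more (points), by complex on the horizontal axis, for Yap-/- over Yap+/- (blue) and for YapTg with over without doxycycline (red); black bars are medians and there is 1 library per group. All red points lie below 0 and all blue points but Uqcrb (complex III) and Ndufa4l2 (other) lie above it; Cox7a1 is furthest from 0 in complex IV, at 0.69 and -1.92.

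The summed level shows how these differences add up. The 83 subunits together reached 8727 RPKM in Yap+/-, 10008 in Yap-/-, 7316 in YapTg without doxycycline and 5249 with it. The sum was 1.15-fold higher in Yap-/- than in Yap+/- and 1.39-fold lower with doxycycline than without. As a share of all summed RPKM, the subunits made up 3.17%, 3.30%, 2.64% and 2.06% in the same order. Complex II had the largest ratio of sums with doxycycline, 1.61-fold lower, and complex V the smallest, 1.34-fold lower. Complexes I, III and IV were 1.41-fold, 1.39-fold and 1.39-fold lower. In Yap-/- the sums were 1.12-fold (complex I) to 1.18-fold (complex IV) higher.

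**Figure D2:**
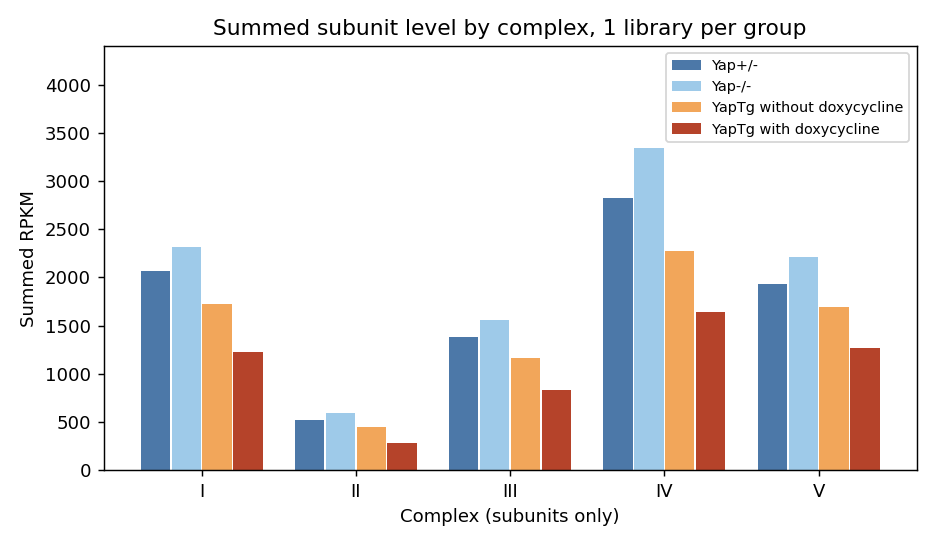
Summed RPKM (vertical axis) of the subunits of each complex (horizontal axis) in each of the 4 libraries, 1 bar per library. In every complex the bar for Yap-/- is highest and that for YapTg with doxycycline is lowest; complex IV reaches 3343 and 1637.

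The promoters in the reference were also read for letter patterns of factors known for this gene class. NRF1 and GABP (an ETS factor) are the classical activators of respiratory chain promoters, YY1 and the oestrogen-related receptors (ERR) bind many of them, and TEAD factors are the DNA-binding partners of YAP. RefSeq windows of 250 bases before to 50 after the start (GRCm38.p6) were found for 68 of the 83 subunits, 73 windows in all. The NRF1 pattern (GCGC, any base, then TGCGC), searched like the others on both strands, was in 24.7% of these windows, in 10.3% of the windows of table genes at 1 RPKM in any library, and in 4.60% of all windows. The YY1 pattern AANATGGC was in 23.3%, against 8.69% and 6.05%. The ETS pattern CCGGAAG was in 21.9%, close to the 18.1% of expressed genes and above the 8.86% of all windows. The ERR pattern TCAAGGTCA was rare, in 2.74%, against 0.258% and 0.423%. The TEAD pattern GGAATG was in 11.0%, against 12.2% and 14.7%, and TATAAA in 11.0%, against 7.54% and 13.6%. No pattern contains another, and a match is a match of letters only.

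The promoters of 5 subunits are printed to show members with like and unlike ratios. The first 3 belong to subunits that were 1.63-fold to 1.86-fold lower with doxycycline and hold NRF1 or ETS letters, and the last 2 to the isoform pair described below. Each stretch is the 120 bases before the RefSeq start, read 5′ to 3′ on the gene's strand, in GRCm38.p6. Capitals mark NRF1 and ETS matches, and positions count back from the start. The stretches are Sdhd, chr9:50603850-50603969 on the minus strand, with an NRF1 match at -79 and an ETS match at -46; Atp5c1, chr2:10080433-10080552 on the minus strand, the one of its windows with an NRF1 match, at -17; Uqcrh, chr4:116075071-116075190 on the minus strand, with an ETS match at -10; Cox7a1, chr7:30184051-30184170 on the plus strand; and Cox7a2, chr9:79759854-79759973 on the minus strand.
Sdhd: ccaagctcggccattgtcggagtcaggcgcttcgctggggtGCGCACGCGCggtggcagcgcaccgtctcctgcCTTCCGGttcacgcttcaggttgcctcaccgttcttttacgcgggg
Atp5c1: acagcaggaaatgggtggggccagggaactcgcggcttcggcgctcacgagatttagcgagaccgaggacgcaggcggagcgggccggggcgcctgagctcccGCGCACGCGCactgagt
Uqcrh: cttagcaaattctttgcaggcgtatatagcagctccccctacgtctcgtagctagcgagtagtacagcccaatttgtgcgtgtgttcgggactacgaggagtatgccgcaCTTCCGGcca
Cox7a1: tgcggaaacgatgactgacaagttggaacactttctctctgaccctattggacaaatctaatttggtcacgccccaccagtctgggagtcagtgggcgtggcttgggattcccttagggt
Cox7a2: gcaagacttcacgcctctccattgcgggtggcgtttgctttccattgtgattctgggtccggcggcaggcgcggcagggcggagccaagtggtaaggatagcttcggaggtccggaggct
Neither Cox7a promoter held any of the 6 patterns in its window. Cox7a1 had the largest ratio of all subunits, and Cox7a2 a ratio near that of Atp5c1. The median log2 ratio with doxycycline was -0.41 for the 15 subunits with an NRF1 match and -0.49 for the 48 without. For ETS it was -0.55 with (16) and -0.45 without (47), for YY1 -0.45 with (17) and -0.51 without (46), and for TEAD -0.36 with (7) and -0.51 without (56). For TATA it was -0.44 with (5) and -0.49 without (58). The widest gap was for ERR, -0.76 with and -0.48 without, but only 2 subunits held that pattern and 61 did not. Whether any of these patterns has a part in the ratios was not tested.

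Complex I takes electrons from NADH. All 35 of its subunits at the floor were lower with doxycycline (54.5% of all genes), 32 by 1.2-fold or more (29.5% of all genes). Their median log2 ratio was -0.44. All 35 were higher in Yap-/- (65.5% of all genes), 5 by 1.2-fold or more (8.21% of all genes), and the median there was 0.15. Its 7 nuclear-encoded core subunits, which carry the flavin and iron-sulphur clusters, were all lower with doxycycline. Ndufv1, which binds NADH, stood at 58.9 RPKM in Yap+/-, 68.4 in Yap-/-, 54.1 in YapTg without and 38.8 with doxycycline, 1.4-fold lower with doxycycline. Ndufs1, the largest iron-sulphur subunit, was at 42.4, 46.5, 42.8 and 32.9 RPKM, 1.30-fold lower with doxycycline, the smallest difference among the core genes. Ndufs8, another iron-sulphur subunit, was at 75.4, 85.9, 69.7 and 45.8 RPKM, 1.52-fold lower. Ndufs1 was also among the few subunits no higher in Yap+/- than in YapTg without doxycycline.

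The accessory subunits of complex I, which surround and stabilise the core, spanned a wider range. Ndufa6 was at 215 RPKM in Yap+/-, 239.7 in Yap-/-, 158 in YapTg without and 92.7 with doxycycline, 1.71-fold lower (1.67 to 1.75). Ndufb5, a membrane-arm subunit, was at 50.8, 59.0, 41.9 and 25.5 RPKM, 1.64-fold lower with doxycycline. The lower-level Ndufb2, at 6.87 RPKM without and 3.95 with doxycycline, was 1.74-fold lower (1.62 to 1.86). At the other end, Ndufa12 was at 10.7, 11.4, 6.16 and 5.62 RPKM, and its ratio with doxycycline, 1.10-fold lower, had an interval that includes 1 (0.959 to 1.25). Ndufa9 was at 88.2, 102, 79.2 and 66.3 RPKM, 1.19-fold lower. Ndufb9 had the highest level of the complex, at 232 RPKM in Yap+/- and 119 with doxycycline.

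In Yap-/- the complex I differences were small at both ends of their range. Ndufc1 (11.0 RPKM in Yap+/-, 13.8 in Yap-/-) and Ndufa1 (76.0 and 96.0 RPKM) were each 1.26-fold higher. Ndufb6 (88.5 and 91.7 RPKM) was 1.04-fold higher and Ndufc2 (56.5 and 57.4 RPKM) 1.02-fold higher, with intervals of 0.989 to 1.08 and 0.963 to 1.07 that include 1. The 4 assembly factors, which help build the complex without staying in it, were 1.29-fold to 1.55-fold lower with doxycycline, like the subunits. In Yap-/- they were 1.00-fold to 1.09-fold higher, and the intervals of Ndufaf1, Ndufaf2 and Ndufaf4 include 1, while that of Ndufaf3 (1.01 to 1.17) does not. Ndufaf1, Ndufaf2 and Ndufaf4 were lower in Yap+/- than in YapTg without doxycycline, which 68 of the 76 subunits at the floor were not. The intervals of Ndufaf1 (0.847 to 1.04) and Ndufaf2 (0.892 to 1.01) include 1 here, while that of Ndufaf4 (0.766 to 0.859) does not.

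Complex II is succinate dehydrogenase, the enzyme shared by the citrate cycle and the chain, and it is the only complex encoded wholly in the nucleus. Its membrane anchor Sdhd was at 255 RPKM in Yap+/-, 291 in Yap-/-, 219 in YapTg without and 122 with doxycycline, 1.79-fold lower with doxycycline (1.75 to 1.84). The iron-sulphur subunit Sdhb was at 96.6, 112, 77.8 and 45.1 RPKM, 1.72-fold lower. The flavoprotein Sdha, which oxidises succinate, was at 120.3, 130.1, 111 and 83.1 RPKM and differed least, 1.34-fold lower (1.31 to 1.36). The other anchor, Sdhc, was at 47.3, 57.6, 45.2 and 31.4 RPKM, 1.44-fold lower. The counting intervals of Sdhb and Sdhd do not reach those of Sdha and Sdhc. In Yap-/- the order was another: Sdhc was 1.22-fold higher, Sdhb 1.16-fold, Sdhd 1.14-fold and Sdha 1.08-fold.

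Complex III moves electrons from quinol to cytochrome c. Its small subunits differed more with doxycycline than its core proteins. Uqcrh, the hinge protein near cytochrome c1, was at 150.02 RPKM in Yap+/-, 176 in Yap-/-, 115 in YapTg without and 61.9 with doxycycline, 1.86-fold lower (1.79 to 1.92). Uqcr11 was at 42.0, 49.7, 31.2 and 17.0 RPKM, 1.84-fold lower. The core protein Uqcrc1 was at 261 RPKM in Yap+/-, 289.9 in Yap-/-, 215 and 188 in the transgenic pair, only 1.14-fold lower (1.13 to 1.16). Uqcrc2, the other core protein, was 1.34-fold lower. The catalytic Cyc1 (cytochrome c1), at 286, 331, 262 and 195 RPKM, had the highest level of the complex and was 1.34-fold lower, and Uqcrfs1, the Rieske iron-sulphur protein, was 1.44-fold lower. Uqcrq, a small subunit near the quinone site, was an exception among the small ones at 1.23-fold lower.

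Uqcrb, a small subunit of complex III, was the only subunit of any complex at the floor that was lower in Yap-/-, at 56.8 RPKM against 60.4 in Yap+/-, 1.06-fold (ratio 0.940, interval 0.898 to 0.985). Of its coding sequence, 72.9% of 50-base stretches also occur in other annotated genes, which bears on how its reads were placed (below). The other 8 genes of complex III were higher in Yap-/-.

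Complex IV, cytochrome c oxidase, is the last enzyme of the chain and passes electrons to oxygen. Its highest gene, Cox4i1, stood at 530.3 RPKM in Yap+/-, 625 in Yap-/-, 427 in YapTg without and 322 with doxycycline, 1.33-fold lower with doxycycline. Cox6a1 (264 without and 222 with doxycycline) and Cox5a (262 and 219.6) were each 1.19-fold lower. Cox7b, at 173, 194, 91.5 and 48.2 RPKM, was 1.90-fold lower (1.82 to 1.98). Cox7b also differed between the references: it was 1.89-fold higher in Yap+/- than in YapTg without doxycycline, as large as its doxycycline difference and far above its 1.12-fold difference in Yap-/-. Ndufa4 was at 356, 435, 298 and 196 RPKM, 1.52-fold lower with doxycycline and 1.22-fold higher in Yap-/-.

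Cox7a1 stood apart from the rest of the chain. Cox7a1 encodes the isoform of subunit VIIa known from heart and skeletal muscle, and Cox7a2 encodes the broadly used isoform. Cox7a1 was at 70.5 RPKM in Yap+/-, 115 in Yap-/-, 40.4 in YapTg without doxycycline and 9.93 with it. It was highest in Yap-/- and lowest with doxycycline, as the other subunits were, but on a larger scale: 1.63-fold higher in Yap-/- (1.53 to 1.73) and 4.07-fold lower with doxycycline (3.53 to 4.71). The next largest doxycycline difference among subunits at 5 RPKM was the 1.90-fold of Cox7b. The values rest on 1460, 2824, 661 and 272 reads, and no 50-base stretch of its coding sequence occurs in another annotated gene. Its partner Cox7a2 was at 152, 205, 153 and 95.9 RPKM, 1.35-fold higher in Yap-/- and 1.59-fold lower with doxycycline (1.53 to 1.65). Between the references Cox7a1 was 1.74-fold higher in Yap+/-, while the ratio of Cox7a2 was 0.995. Cox7a2l, a related protein that joins complexes III and IV in supercomplexes, was at 82.2, 94.1, 68.1 and 42.3 RPKM, 1.61-fold lower with doxycycline.

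**Figure D3:**
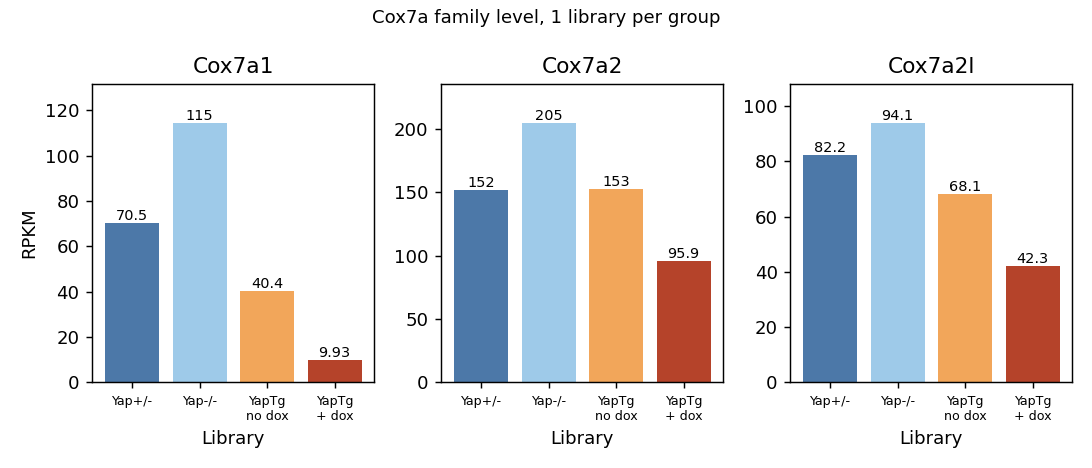
Level in RPKM (vertical axis, from 0) of Cox7a1, Cox7a2 and Cox7a2l in the 4 libraries, 1 bar per library with its value. The Cox7a1 bar with doxycycline (9.93) is far below its partner without doxycycline (40.4), while Cox7a2 and Cox7a2l keep more of their level (95.9 and 42.3).

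Cox7a1 was the only one of the tissue-restricted complex IV isoforms with a clear signal. Cox6a2, the muscle partner of Cox6a1, stood between 0.202 and 0.606 RPKM, and Cox6b2, a testis isoform, between 0.338 and 0.724. Cox4i2 had at most 5 reads in a library, Cox8b had 2 reads in 1 library, and Cox7b2 and Cox8c were at 0 in all 4. Of 9 stromal and muscle markers, 2 reached 1 RPKM. Acta1 was at 13.3, 7.82, 6.11 and 9.08 RPKM, which is not the order of Cox7a1, and Vim, a mesenchymal filament gene, at 3.39, 3.46, 2.26 and 0.381 RPKM, which is its order, with the first pair within counting error. Des was at 0 in every library, and Ckm and Myh11 were at most 0.0376 RPKM. The summed level of the 9 was 16.7, 11.3, 8.42 and 9.54 RPKM. The summed level of the enterocyte markers shared the direction of Cox7a1 in both pairs. It was 10782 RPKM in Yap+/-, 15467 in Yap-/-, 7109 in YapTg without and 2098 with doxycycline. Of these 10 markers, 3 were lower in Yap-/- (34.5% of all genes). The summed levels of the goblet, Paneth and stem cell markers shared that direction in both pairs too. The part of any of these lists in the Cox7a1 values was not tested.

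Ndufa4l2, a relative of Ndufa4 known to be induced by low oxygen, had a pattern of its own. It was at 8.51 RPKM in Yap+/-, 2.42 in Yap-/-, 0.580 in YapTg without and 0.0277 with doxycycline. It was the only member past 2-fold in the Yap-/- pair, 3.52-fold lower, where its relative Ndufa4 was higher. Between the references it was 14.7-fold higher in Yap+/- than in YapTg without doxycycline. With doxycycline it was 20.9-fold lower, but on 25 and 2 reads, with an interval of 5.22 to 182. Of the other members that are not subunits, Atp5sl was 1.69-fold lower with doxycycline and Cox4nb, which encodes no respiratory chain protein, 1.26-fold lower. Atp5s, at 3.40 and 3.02 RPKM, was 1.12-fold lower with an interval that includes 1 (0.947 to 1.33).

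ATP synthase has a catalytic head turned by a rotor in the membrane. The head subunits Atp5a1 and Atp5b were the most abundant of the complex: Atp5a1 was at 499 RPKM in Yap+/-, 567 in Yap-/-, 464 in YapTg without and 357 with doxycycline, and Atp5b at 484, 537, 449.9 and 376. They were 1.30-fold and 1.2-fold lower with doxycycline, on 65297 reads or more in each library. The central stalk subunit Atp5c1 differed more, at 151, 173, 128 and 78.2 RPKM, 1.63-fold lower (1.59 to 1.68). Atp5d, also of the central stalk, was at 126, 144, 101 and 86.8 RPKM, only 1.16-fold lower (1.13 to 1.19). Thus subunits of the same stalk had ratios whose counting intervals lie far apart. In Yap-/- both were 1.15-fold higher.

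The rotor ring subunit c is encoded by 3 genes that yield the same mature protein. Atp5g3 carried nearly all the signal assigned to them, at 250.4 RPKM in Yap+/-, 301 in Yap-/-, 212 in YapTg without and 132 with doxycycline, 1.61-fold lower with doxycycline and 1.2-fold higher in Yap-/-. Atp5g1 was at 9.38, 11.2, 6.77 and 5.55 RPKM, 1.22-fold lower with doxycycline. Atp5g2 was at 0.489, 0.320, 1.27 and 0.821 RPKM. The stator genes of the peripheral stalk (Atp5f1, Atp5h, Atp5j and Atp5o) were all lower with doxycycline by 1.29-fold to 1.51-fold. Of these, Atp5j (50.5 and 54.6 RPKM) and Atp5f1 (57.3 and 60.7 RPKM) had the smallest differences in Yap-/-, 1.08-fold and 1.06-fold higher. Atp5k, a membrane subunit, was at 91.2, 109.9, 76.6 and 50.6 RPKM, 1.51-fold lower with doxycycline and 1.2-fold higher in Yap-/-.

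Some subunits that every respiring cell uses were recorded at very low levels. Cycs, which encodes the cytochrome c of somatic cells, was at 2.13 RPKM in Yap+/-, 2.38 in Yap-/-, 1.99 in YapTg without and 1.35 with doxycycline, although its partner Cyc1 was at 195 or more throughout. Apart from the tissue-restricted isoforms, 10 of 76 subunits were under 12 RPKM in every library: Ndufa12, Ndufab1, Ndufb2, Ndufb4, Ndufs3, Cycs, Cox7c, Atp5g1, Atp5g2 and Atp5l. These were singled out after their levels were seen. For 9 of the 10, at least 50% of the 50-base stretches of the coding sequence also occur in another annotated gene. Most of these other genes are called pseudogenes, though only 1 of 3 for Ndufb2. Of the other 66 subunits, 4 shared at least 50%. The share was 100% for Cycs, Ndufb4, Atp5g2 and Atp5l, 99.8% for Ndufab1, 99.7% for Atp5g1 and 81.9% for Cox7c. The exception was Ndufs3, at 47.8%. Atp5l, a membrane subunit of ATP synthase, was at 1.48, 2.66, 2.74 and 1.12 RPKM, a ratio of RPKM 2.45-fold lower with doxycycline and 1.8-fold higher in Yap-/-, both on levels near the floor. How reads that fit several places were counted is not given in the sources used here, so the levels of these genes are uncertain. The 44 subunits with under 5% of such stretches had medians of 0.19 in Yap-/- and -0.47 with doxycycline (0.18 and -0.47 for all subunits). Of these, 44 of 44 were lower with doxycycline (54.5% of all genes). The second Ndufb8 row (161, 193, 158 and 122 RPKM) overlaps the first (29.1, 32.7, 27.7 and 20.1 RPKM) and shares sequence with it, so how their reads were divided is unknown too.

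**Figure D4:**
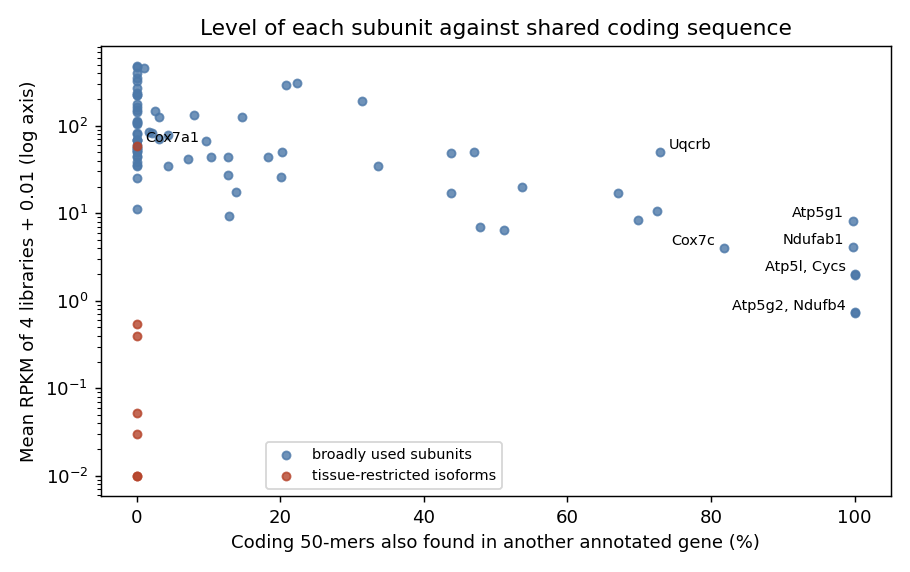
Mean RPKM of the 4 libraries plus 0.01 (vertical log axis) of each subunit against the percentage of 50-base stretches of its coding sequence found in another annotated gene (horizontal axis). Points are broadly used subunits (blue) and tissue-restricted isoforms (red); the broadly used subunits at 80% or more all lie low, including Cycs, Ndufb4, Atp5g2 and Atp5l at 100%.

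Genes around the chain give a scale for these differences. The counts in these lists stand beside 54.5% of all genes lower and 45.5% higher with doxycycline, and 65.5% higher in Yap-/-. The mitochondrially encoded subunits differed less: 11 of 12 at the floor were lower with doxycycline, with a median log2 ratio of -0.26. In Yap-/- 7 of 11 were higher, near the share of all genes, with a median of 0.02. The abundant mt-Nd1, a core subunit of complex I, was at 3247 RPKM without and 2458 with doxycycline, while mt-Nd2, another, was at 1801 and 1985. The genes mt-Co2, mt-Co3, mt-Atp6 and mt-Atp8 were recorded at 2.62 RPKM or less in every library, against 4725 or more for mt-Co1, so their levels are uncertain as well. Assembly factors outside the symbol rule had a median of -0.26 with doxycycline, 16 of 21 lower. Sdhaf1, a complex II assembly factor, was at 15.7 RPKM without and 9.50 with doxycycline, and Cox18, which inserts a complex IV subunit, at 6.61 and 7.83.

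Fatty acid oxidation, which feeds electrons into the chain, came closest to the subunits: all 14 genes at the floor were lower with doxycycline, with a median of -0.42. Hadh, a dehydrogenase of that pathway, was at 69.7 RPKM without and 24.2 with doxycycline. The citrate cycle and pyruvate dehydrogenase genes had a median of -0.19, 15 of 17 lower, from Mdh2 (malate dehydrogenase, 444 and 273 RPKM) to Pdha1 (63.3 and 69.4 RPKM). Citrate synthase, Cs, was at 179 and 174 RPKM. Mitochondrial ribosomal protein genes had a median of -0.20, 63 of 75 lower, and cytosolic ones -0.10, 57 of 80 lower.

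Other mitochondrial lists had medians near 0. Import and chaperone genes had a median of 0.00, with 6 of 11 lower, near the 54.5% of all genes. Timm23, of the inner membrane import channel, was at 3.85 RPKM without and 5.46 with doxycycline. Among the 8 genes of exchange across the mitochondrial membranes, Slc25a4, an ADP/ATP carrier, was at 4.94 and 13.6 RPKM and Vdac2, an outer membrane channel, at 69.9 and 158, while the pyruvate carrier gene Brp44 was at 12.5 and 6.84. Proteasome genes, another set of abundant housekeeping genes, had a median of 0.18, 29 of 38 higher. These lists thus spread from -0.47 for the nuclear-encoded subunits to 0.18, and in Yap-/- from 0.01 for cytosolic ribosomal proteins to 0.18 for the subunits.

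Known regulators of mitochondrial gene expression were mixed: 10 of 15 were lower with doxycycline (54.5% of all genes), with a median of -0.15. Tfam, which packages and transcribes mitochondrial DNA, was at 13.3, 14.6, 13.2 and 8.41 RPKM. Esrra, an oestrogen-related receptor, was at 22.7, 25.9, 19.3 and 14.0 RPKM. Tfam and Esrra thus had the order of libraries of most subunits, an order that 15% of all genes had. Nrf1 itself was at 2.80, 2.81, 3.06 and 3.39 RPKM, not lower with doxycycline, and Gabpa at 10.8, 11.8, 12.8 and 11.7. Myc, which also drives mitochondrial biogenesis genes, was at 33.0 RPKM without and 52.4 with doxycycline. The part of these regulators in the differences of the chain was not tested.

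Several marker lists had medians in the direction of the subunits in the loss and doxycycline pairs. The enterocyte markers were all lower with doxycycline (10 of 10, median log2 ratio -1.88), as were 54.5% of all genes. In Yap-/- 7 of 10 were higher (median 0.34), near the 65.5% of all genes. At 1.2-fold, 5 were higher (8.21% of all genes) and 1 lower (5.34% of all genes). The goblet cell markers were lower with doxycycline (7 of 7, median -2.08), as were Paneth cell markers (6 of 6, -0.71) and stem cell markers (5 of 5, -1.62). In Yap-/-, 6 of 7, 6 of 6 and 5 of 5 of these were higher. Between the references, 7 of 10 enterocyte markers were higher in Yap+/-, with a median of 0.60. The other lists went mostly the other way from the subunits. Higher in Yap+/- were 3 of 7 goblet (median -0.30), 0 of 6 Paneth (-1.23) and 0 of 5 stem cell markers (-0.74). The marker differences with doxycycline were larger than those of the chain in their medians. Their part in the chain's differences was not tested.

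Gene length and level were compared in the same way. All genes shorter than 1500 bases had a median log2 ratio of -0.18 with doxycycline (65.3% lower), and all genes at a mean of 50 RPKM or more one of -0.19 (64.8% lower), both lower than the -0.04 of all genes. The subunits were lower than both: -0.52 for the 33 shorter than 1500 bases and -0.43 for the 43 longer ones, and -0.48 for the 44 at 50 RPKM or more. In Yap-/- the short genes had a median of 0.08 and the abundant genes 0.075, beside 0.19 for the short subunits and 0.185 for the abundant ones. Between the references, with Yap+/- over YapTg without doxycycline, the median of all genes was -0.11 (65.6% lower). The short genes had a median of 0.087 there (39.7% lower) and the abundant genes 0.092 (37.45% lower). The short subunits had 0.27 and the abundant ones 0.265.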

How the data were processed

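RNA from 4 mouse organoid libraries, 1 per group, was sequenced from Illumina TruSeq libraries, per the labels. CASAVA 1.8, FastQC, TopHat 1.4.1 and the mm9 build are named in the submitters' processing notes. Not given in the sources used here are the counter, annotation, strand setting and handling of reads with several matches. The authors deposited 1 value per gene and library without naming its unit. These deposited values were taken as RPKM, made by the authors by dividing reads by gene length and library total: for all 17378 genes above 0, they are whole reads (within 0.001) over a length and a total solved from the values. Of these genes, 6714 have a length equal to that of GENCODE M21 (43 of the 94 members). For the others the fitting length nearest the GENCODE one was used, or the shortest that fits where GENCODE gave none. Their reads may thus be too many or too few, and their intervals too narrow or too wide. All columns were used.

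Ratios are log2 of RPKM plus 1, for genes at 1 RPKM or more in the higher library; folds are ratios of RPKM, with exact conditional binomial 95% intervals from the solved reads. There are no replicates, so no test was run. Genes were named by a rule. It took members past 2-fold, the extremes and highest of each complex, core and isoform genes, and the extremes of each related list. Uqcrfs1, Cox7a2l, Cs and a few other genes outside the rule were picked with their values in view. A gene that the rule names is not reported here. The members and lists were chosen with earlier results of these data known. Of 204 listed symbols, 10 had no row. Shared coding sequence was counted as 50-base stretches found in other GENCODE M21 genes. Read recovery and intervals were tested on simulated data. Python 3.11.15, pandas 2.3.3, numpy 2.4.6, SciPy 1.17.1 and matplotlib 3.10.9 were used.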

Additional observations from a re-analysis of the deposited data

How the results depend on the processing

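Other pseudocounts (0.1 and 5), floors (none and 5 RPKM), scalings (median ratio and upper quartile) and member sets kept the direction of every median, and with doxycycline no member at a floor of 1 or 5 RPKM was higher. Without a floor 3 were higher with doxycycline, all under 1 RPKM. In the Yap-/- pair, the members lower numbered 6 without a floor and under either scaling, and 1 among subunits only or without members sharing 50% or more of their coding sequence (chosen after seeing the data). Those at least 1.2-fold higher numbered 7 with a pseudocount of 5 or either scaling, and those 1.2-fold lower 0 among subunits. Between the references, members lower numbered 6 (median ratio), 8 (upper quartile, or subunits only) and 7 by counting interval; those 1.2-fold lower numbered 0 (pseudocount 5) and 1 (floor of 5, or without shared sequence), and 61 were 1.2-fold higher with median-ratio scaling. The cause was not tested. No paired analysis was possible because each group has 1 library, and for the same reason no library could be left out.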
